A study of Mus musculus with 10 samples.

Results

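The genes described here are 10 core cell cycle genes: the D-type cyclins Ccnd1, Ccnd2 and Ccnd3, the E-type cyclins Ccne1 and Ccne2, the mitotic cyclins Ccna2 and Ccnb1, and the kinases Cdk1, Cdk4 and Cdk6. They were chosen by gene symbol from the 33393 genes with a value in the files, and all 10 passed the filter on low values that left 12874 genes for testing. RNA was sequenced from CD34- hematopoietic stem cells (HSCs), sorted from bone marrow as cells that lacked lineage markers, CD34 and Flt3 and carried Sca-1 and c-Kit. The mice were C57BL/6, individually sampled at 8 weeks of age. Both genotypes carried floxed alleles of Regnase-1 (Reg1flox/flox; the gene is Zc3h12a, which encodes an RNase that degrades mRNAs). The Reg1Δ/Δ mice also carried Vav1-iCre, a recombinase driven by a promoter active in blood cells in general and not only in stem cells, and the control mice did not. There were 5 libraries per genotype, 3 in a first and 2 in a second experiment. Values are TPM, a transcript's share of all transcripts after division by length, summed over the transcripts of a gene. TPM keeps no record of sequencing depth, so no counting interval is given.

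Cyclins are the regulatory subunits that switch on cyclin-dependent kinases (CDKs). D-type cyclins with Cdk4 or Cdk6 begin the phosphorylation of the retinoblastoma protein family in G1, E-type cyclins with Cdk2 complete it at the entry to S phase, and the A- and B-type cyclins with Cdk1 drive passage through G2 and mitosis. Adult HSCs are mostly quiescent, and the D-type cyclins and Cdk6 are known regulators of their exit from quiescence.

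The libraries differed between genotypes well beyond these genes. Genes at 1 TPM or more numbered 14276 to 14307 in the first-experiment controls and 12006 to 12048 in the libraries labelled Reg1Δ/Δ. In the second experiment they numbered 13366 to 13717 against 11256 to 11398. Zc3h12a itself was at 1.28 to 1.83 TPM in the first-experiment controls against 2.08 to 3.54 TPM in the libraries labelled Reg1Δ/Δ, and at 1.48 and 6.07 against 10.3 and 8.52 TPM in the second experiment. It was thus higher where the label says it was deleted (log2 fold change 0.83, SE 0.28, adjusted p = 0.0314), a call that was lost without replicate 1 of the first-experiment Reg1Δ/Δ libraries (adjusted p = 0.068), without control replicate 2 of that experiment (0.0595) and without replicate 1 (0.0768) or replicate 2 (0.0662) of the second-experiment Reg1Δ/Δ libraries, with no filter (0.0897) and in either experiment alone (0.0527 and 0.265). A transcript total does not separate the floxed exons from the rest, and every direction below refers to the label. The stem cell markers Hlf and Mecom averaged 154 and 46.7 TPM in the first-experiment controls and 1.89 and 2.31 TPM in the Reg1Δ/Δ-labelled libraries of that experiment. Cd34, by whose absence the cells were sorted, averaged 192 TPM in those controls and 16.8 TPM in those labelled libraries. Of the markers tested, 8 of 9 stem cell, 7 of 7 B lineage, 7 of 10 neutrophil and monocyte, and 5 of 5 megakaryocyte genes were lower in the Reg1Δ/Δ-labelled libraries, as were 37.9% of all tested genes. The stem cell markers summed to 773 to 883 TPM in the first-experiment controls and 186 to 565 TPM in the labelled libraries, and to 344 to 509 against 182 to 205 TPM in the second experiment. The B lineage markers summed to 168 to 1046 TPM against 5.35 to 21.8 TPM, and to 1194 to 1381 against 2.75 to 7.53 TPM. The erythroid list was split, with Klf1, Epor, Car1 and Ermap higher and the 4 globin genes lower. Transcripts under 500 bases held 52.3 to 54.5% of the TPM in the first experiment and 20.0 to 27.3% in the second, so levels were compared only within an experiment. In bulk RNA, fewer cells of a type and less RNA per cell cannot be told apart, and the part of cell composition in the results below was not tested.

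Of the 10 genes, 3 were higher in the Reg1Δ/Δ-labelled libraries (Ccne1, Ccna2 and Ccnb1), 2 were lower (Ccnd3 and Ccnd2) and 5 passed in neither direction, in a limma fit over both experiments at an adjusted p of 0.05. Over all tested genes, 15.0% were called higher and 37.9% lower. Under median-of-ratios scaling 7 of the 10 genes were higher and 1 lower, beside 4334 higher and 3245 lower of all genes, and under quantile normalization the counts over all genes were 3861 and 2636. Without replicate 2 or replicate 3 of the first-experiment Reg1Δ/Δ-labelled libraries, 1 of the 10 genes was higher. The median log2 fold change of the 10 genes was 0.22, against -0.25 for all tested genes, and 8 of the 10 lay above that overall median. In the first experiment alone 5 were higher and 2 lower, where 12.0% and 38.3% of all genes were, and in the second alone 0 were higher and 1 was lower, where 3.51% and 12.3% were. Ccnd3 and Ccne1 moved most, in opposite directions. Ccnd3 was the only one of the 10 to lie below every control of its own experiment in all labelled libraries, as did 31.4% of all tested genes, and Ccne1 was the only one to lie above, as did 12.7%. Ccnd3 was called lower under all 23 alternative settings and Ccne1 was called higher under 22, the exception being the second experiment alone.

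**Figure D1:**
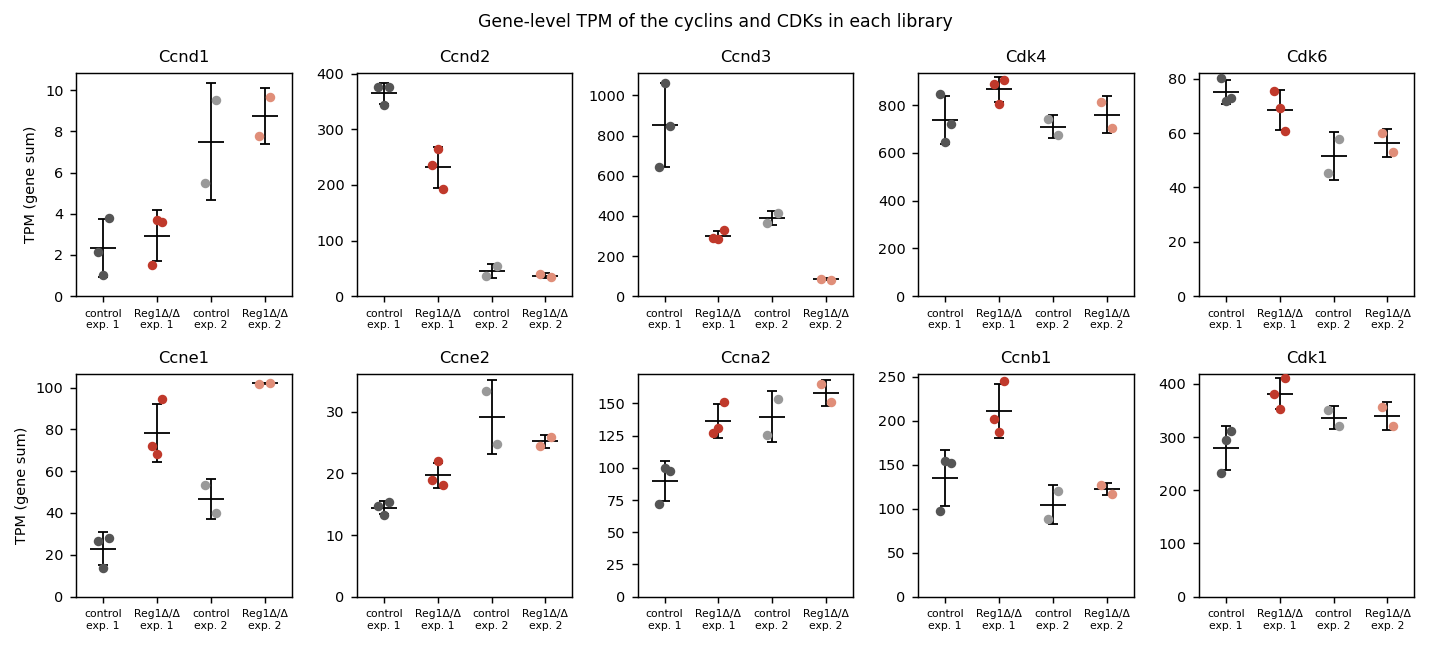
Gene-level TPM of the 10 genes (vertical axes, TPM, each starting at 0) in the 4 groups of libraries; points are libraries, horizontal bars are means and error bars are SD. Ccnd3 is lower and Ccne1 higher in every Reg1Δ/Δ-labelled library of both experiments, whereas the Cdk4 and Cdk6 points overlap between genotypes.

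Ccnd3, cyclin D3, was the most abundant D-type cyclin in every library. It lies at chr17:47505051-47599691 on the plus strand (GRCm38). The first-experiment controls held 645, 1061 and 847 TPM and the Reg1Δ/Δ-labelled libraries 291, 286 and 329 TPM. The second-experiment controls held 363 and 413 TPM and the labelled libraries 87.8 and 83.0 TPM. Every Reg1Δ/Δ-labelled library was thus below every control of its own experiment. The mean was 2.82-fold lower in the first experiment and 4.54-fold lower in the second (log2 fold change over both -1.75, SE 0.18, adjusted p = 3.29e-05; -1.46 and -2.17 within the experiments, adjusted p = 0.00156 and 0.018). The difference between the 2 experiments did not pass its own test (interaction adjusted p = 0.37).

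Ccnd3 has an upstream and a downstream start region, which RefSeq lists as separate promoters. The 13 transcripts that start within 250 bases of the upstream site together averaged 297 ± 60.0 TPM (SD, n = 3) in the first-experiment controls and 107 ± 17.9 TPM in the labelled libraries. This sum went from 67.8 ± 11.7 to 18.1 ± 4.29 TPM in the second experiment (SD, n = 2). The 3 transcripts from the downstream site averaged 225 ± 67.5 against 74.5 ± 5.28 TPM in the first experiment and 303 ± 15.5 against 66.2 ± 0.585 TPM in the second. The other 5 transcripts, which start farther downstream, averaged 329 ± 89.2 against 121 ± 20.3 TPM in the first experiment, where they were the largest class in the controls, and 17.5 ± 7.85 against 1.07 ± 1.51 TPM in the second. The mean of each of the 3 classes was below the controls, by 2.78-fold (upstream), 3.01-fold (downstream) and 2.73-fold (farther downstream) in the first experiment and by 3.74-fold (upstream) and 4.57-fold (downstream) in the second; no fold is given for the third class there, whose labelled libraries were listed at 0 and 2.13 TPM. Nearly all of the downstream level came from a single coding transcript of 1977 bases (ENSMUST00000182209). Transcripts under 500 bases held 70.8% of Ccnd3 TPM in the first-experiment controls and 72.8% in the labelled libraries, against 8.84% and 9.77% in the second experiment. In the first-experiment controls an upstream transcript of 277 bases averaged 192 TPM and a farther downstream one of 336 bases 256 TPM. Both were listed at 0 throughout the second experiment, so these 2 first-experiment sums rest mostly on short transcripts.

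That transcript was at 160, 295 and 218 TPM in the first-experiment controls, at 77.2, 68.4 and 77.9 TPM in the labelled libraries, at 291 and 310 TPM in the second-experiment controls and at 66.6 and 65.7 TPM in their labelled counterparts. It was called lower, again with no overlap (log2 fold change -1.79, SE 0.20, adjusted p = 0.000266). Over all transcripts tested, 14.9% were called lower. The other 3 Ccnd3 transcripts called lower were of 299, 754 and 931 bases; the calls of the first and second were lost without each of 7 libraries, 6 of them the first-experiment libraries (adjusted p up to 0.0806 and 0.103), and that of the third with no filter (0.0562), with a pseudocount of 0.1 (0.0608) and in either experiment alone (0.0973 and 0.144). The exons of the 1977-base transcript overlap Bysl, a gene on the opposite strand, over 359 bases, and Bysl was higher in the labelled libraries (log2 fold change 1.01, adjusted p = 0.000522). The start of this Ccnd3 transcript lies in the downstream RefSeq promoter, which holds a single CCAAT box, the motif bound by NF-Y; the window around it is shown because the transcript that starts there carried most of the second-experiment difference, with the motif in capitals (chr17:47593347-47593376, plus strand, GRCm38.p6).

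Ccnd3 downstream promoter: gagcccagcggaCCAATggggctgcgggga

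Ccnd2, cyclin D2, was next in abundance among the D-type cyclins (chr6:127125162-127152193, minus strand). Its levels were 375, 344 and 376 TPM in the first-experiment controls against 237, 265 and 193 TPM in the labelled libraries. They were 36.6 and 53.7 TPM against 40.0 and 33.7 TPM in the second experiment. The genotypes separated in the first experiment and overlapped in the second. Over both, Ccnd2 fell by 0.50 on the log2 scale (SE 0.15, adjusted p = 0.0178), with -0.66 in the first experiment alone (adjusted p = 0.0125) and -0.26 in the second (adjusted p = 0.532). Under median-of-ratios scaling its log2 fold change was -0.09 and was not called.

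The Ccnd2 total drew on different transcripts in the 2 experiments. In the first-experiment controls 58.3% of Ccnd2 TPM was assigned to transcripts under 500 bases, and in the second experiment none was. The full-length coding transcript of 6330 bases was at 14.5, 15.5 and 14.8 TPM in the first-experiment controls and 8.19, 9.25 and 9.999 TPM in the labelled libraries, and at 31.2 and 49.5 against 34.0 and 28.2 TPM in the second experiment. It was lower with no overlap in the first experiment and overlapped in the second (log2 fold change -0.52, SE 0.16, adjusted p = 0.0476). This call was lost without any of 8 of the 10 libraries, all but replicate 1 of each second-experiment group, at adjusted p = 0.0884 to 0.112. Of its exon bases, 994 lie inside Gm43126, an antisense gene that was also lower (log2 fold change -0.79, adjusted p = 0.0282), and 479 inside 9330179D12Rik, another antisense gene, which was below the filter. Reads of Ccnd2 and these genes cannot be told apart over the shared bases.

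Ccnd1, cyclin D1, was the least abundant of the 10 genes in all groups (chr7:144929931-144939925, minus strand). It was at 2.14, 1.02 and 3.80 TPM in the first-experiment controls and 1.53, 3.70 and 3.58 TPM in the labelled libraries, and at 5.48 and 9.51 against 7.78 and 9.68 TPM in the second experiment. The groups overlapped in both (log2 fold change 0.26, SE 0.27, adjusted p = 0.44). The estimate turned to -0.09 with coding transcripts only and to -0.04 with transcripts of at least 500 bases, and under quantile normalization Ccnd1 was called higher (1.11, adjusted p = 0.00962).

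Summed over the 3 D-type cyclins, the controls of the first experiment held 1023, 1406 and 1227 TPM and the labelled libraries 529, 556 and 525 TPM. The second-experiment sums were 405 and 476 against 136 and 126 TPM. The cyclin D pool was lower in every labelled library than in every control of its experiment. Its make-up also differed, with Ccnd3 taking 63.1 to 75.5% of it in the first-experiment controls and 51.6 to 62.6% in the labelled libraries, and 86.7 to 89.6% against 64.7 to 65.7% in the second experiment. Ccnd2 took up the remainder almost entirely in the first experiment.

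**Figure D2:**
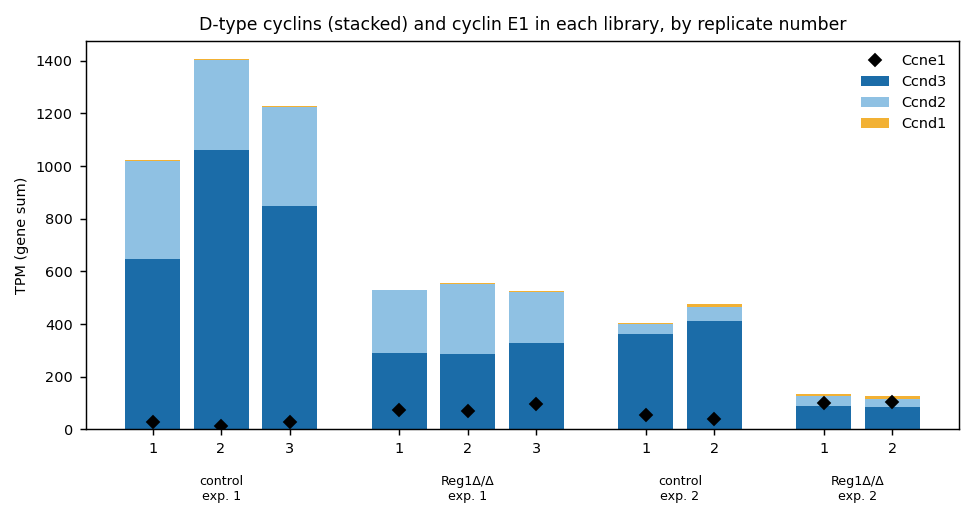
TPM of the D-type cyclins stacked in each library (bars, from 0) with Ccne1 as black diamonds on the same axis; numbers under the bars are replicate numbers. Within the first experiment the stacks run from 1023 to 1406 TPM in controls and from 525 to 556 TPM in libraries labelled Reg1Δ/Δ, and within the second from 405 to 476 TPM and from 126 to 136 TPM.

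Cdk4, a kinase partner of the D-type cyclins, lies at chr10:127063534-127067920 (plus strand). It was at 848, 647 and 719 TPM in the first-experiment controls, 889.9, 806 and 904 TPM in the labelled libraries, 743 and 675 TPM in the second-experiment controls and 814 and 705 TPM in the labelled ones. The genotypes overlapped in both experiments, and the gene was not called (log2 fold change 0.18, SE 0.11, adjusted p = 0.185). Under median-of-ratios scaling, which moved the median of all genes from -0.25 to 0.10, the value was 0.60 and passed. Relative to the median of all genes, it lay 0.44 higher in the TPM fit.

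Cdk6, the other partner of the D-type cyclins, lies at chr5:3341485-3531008 (plus strand). Its levels were 80.2, 71.9 and 73.0 TPM in the first-experiment controls and 75.5, 69.1 and 61.0 TPM in the labelled libraries, and 45.4 and 57.9 against 60.1 and 52.9 TPM in the second experiment. The groups overlapped throughout (log2 fold change -0.03, SE 0.12, adjusted p = 0.868), and the sign turned to 0.02 under quantile normalization and to 0.39 under median-of-ratios scaling, where it was called. Cdk4 made up 90.0 to 94.2% of the Cdk4 and Cdk6 sum in every library. The ratio of cyclin D to Cdk4 and Cdk6 TPM was 1.10 to 1.95 in the first-experiment controls and 0.545 to 0.634 in the labelled libraries. In the second experiment it was 0.514 and 0.650 against 0.155 and 0.167, again with no overlap.

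The 10 genes have 78 transcripts in the files, of which 46 passed the filter, 5 were called higher and 6 lower. A transcript of Cdk4 and a pair of Cdk6 transcripts were among them, although the gene totals were not called. The full-length Cdk4 transcript of 2053 bases was at 15.9, 12.4 and 14.3 TPM in the first-experiment controls, 21.6, 19.7 and 23.8 TPM in the labelled libraries, 111 and 105 TPM in the second-experiment controls and 154 and 156 TPM in the labelled libraries there. It was higher in every labelled library (log2 fold change 0.56, SE 0.13, adjusted p = 0.0124). The call was lost in the second experiment alone (adjusted p = 0.0727) and without the experiment covariate (0.963). In the first-experiment controls it averaged 14.2 TPM of a Cdk4 total of 738 TPM, of which 61.3% was assigned to retained-intron transcripts. Over all transcripts, 6.40% were called higher. Of its exon bases, 641 overlap the opposite-strand gene Tspan31 (log2 fold change 0.35, adjusted p = 0.144).

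For Cdk6, 2 transcripts were called in opposite directions. A coding transcript of 697 bases was at 15.6, 10.1 and 9.03 TPM in the first-experiment controls and 4.97, 8.63 and 5.07 TPM in the labelled libraries, and at 8.57 and 6.00 against 2.57 and 2.46 TPM in the second experiment. It was lower in every labelled library (log2 fold change -0.97, SE 0.22, adjusted p = 0.0116), a call lost after quantile normalization (-0.63, adjusted p = 0.0656). The call was also lost in either experiment alone (adjusted p = 0.0777 and 0.134) and without the experiment covariate (0.187). A single-exon retained-intron transcript of 2232 bases (chr5:3470949-3473180) was at 1.39, 0.57 and 1.55 TPM against 4.91, 3.48 and 3.38 TPM in the first experiment and at 1.11 and 1.13 against 6.08 and 5.11 TPM in the second. It was higher in every labelled library (log2 fold change 1.37, SE 0.19, adjusted p = 0.000797). This exon shares 320 bases with the antisense gene Gm17590, which was also higher in the labelled libraries (log2 fold change 2.63, SE 0.49, adjusted p = 0.00145); strand was not stated to be used in counting, so reads of the pair cannot be told apart over those 320 bases.

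**Figure D3:**
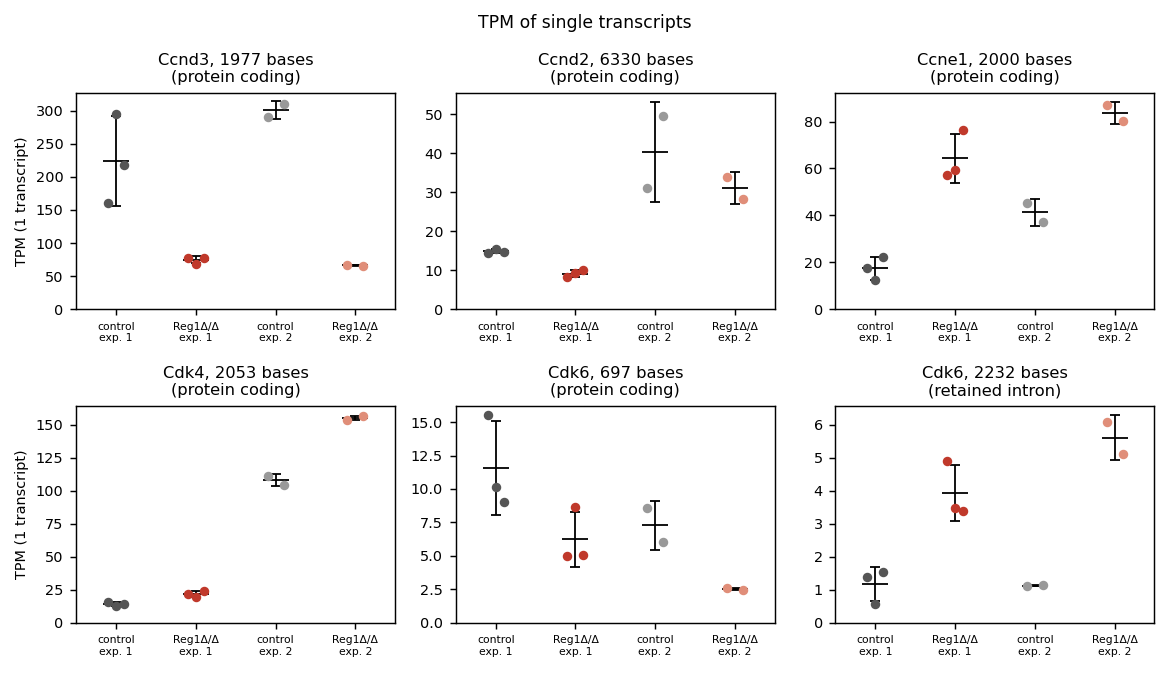
TPM of single transcripts (vertical axes, TPM, each starting at 0) in the 4 groups of libraries; points are libraries, bars are means and error bars are SD. The Ccnd3 transcript of 1977 bases and the Cdk6 transcript of 697 bases are lower, and the Ccne1, Cdk4 and 2232-base Cdk6 transcripts higher, in every library labelled Reg1Δ/Δ; the Ccnd2 transcript separates only in the first experiment.

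Ccne1, cyclin E1, the activator of Cdk2 at the entry to S phase, lies at chr7:38097984-38107534 (minus strand). The first-experiment controls held 26.8, 13.7 and 28.1 TPM and the labelled libraries 72.2, 68.4 and 94.4 TPM. The second-experiment controls held 53.4 and 39.9 TPM and the labelled libraries 102 and 102 TPM. Every labelled library was above every control of its experiment. The mean was 3.42-fold higher in the first experiment and 2.19-fold higher in the second (log2 fold change 1.52, SE 0.23, adjusted p = 0.000369). Within the experiments the values were 1.78 (adjusted p = 0.00312) and 1.13 (adjusted p = 0.0552), and the interaction did not pass (adjusted p = 0.588).

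The most abundant Ccne1 transcript, coding and of 2000 bases and 12 exons, showed the same direction. It was at 17.6, 12.5 and 22.3 TPM in the first-experiment controls, 57.0, 59.5 and 76.3 TPM in the labelled libraries, 45.4 and 37.2 TPM in the second-experiment controls and 87.1 and 80.4 TPM in the labelled ones. As for the gene total, the genotypes did not overlap (log2 fold change 1.51, SE 0.22, adjusted p = 0.00125). A coding Ccne1 transcript of 608 bases was also called higher (log2 fold change 1.77), and was listed at 0 in the 3 first-experiment controls. In the first-experiment controls, transcripts under 500 bases held 18.9% of Ccne1 TPM, less than of Ccnd2 (58.3%), Ccnd3 (70.8%) or Cdk6 (54.7%). In the second experiment they held 0 of Ccne1 and of Ccnd2.

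Ccne2, cyclin E2, the paralog of Ccne1 (chr4:11191351-11204779, plus strand), was not called. It was at 14.7, 13.2 and 15.3 TPM against 18.9, 22.0 and 18.2 TPM in the first experiment and at 33.4 and 24.9 against 24.4 and 26.0 TPM in the second. The genotypes separated upward in the first experiment and overlapped in the second (log2 fold change 0.18, SE 0.15, adjusted p = 0.33; 0.42 and -0.19 within the experiments, adjusted p = 0.0368 and 0.543). Under quantile normalization (0.54, adjusted p = 0.043) and median-of-ratios scaling (0.58, adjusted p = 0.0128) Ccne2 was called higher. The interaction had an unadjusted p of 0.0289 and an adjusted p of 0.338. Ccne1 accordingly made up 51.0 to 64.7% of cyclin E TPM in the first-experiment controls and 75.6 to 83.8% in the labelled libraries, and 61.5 to 61.6% against 79.7 to 80.6% in the second experiment, with no overlap.

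Of the 10 genes Ccnd3 fell most and Ccne1 rose most, so a large difference in their ratio follows from that choice. The ratio of Ccnd3 to Ccne1 TPM was 24.1, 77.2 and 30.2 in the first-experiment controls and 4.03, 4.19 and 3.48 in the labelled libraries. In the second experiment it was 6.80 and 10.3 against 0.862 and 0.812. Cyclin E1 mRNA thus exceeded cyclin D3 mRNA per length in the second-experiment libraries labelled Reg1Δ/Δ, and in no other group.

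**Figure D4:**
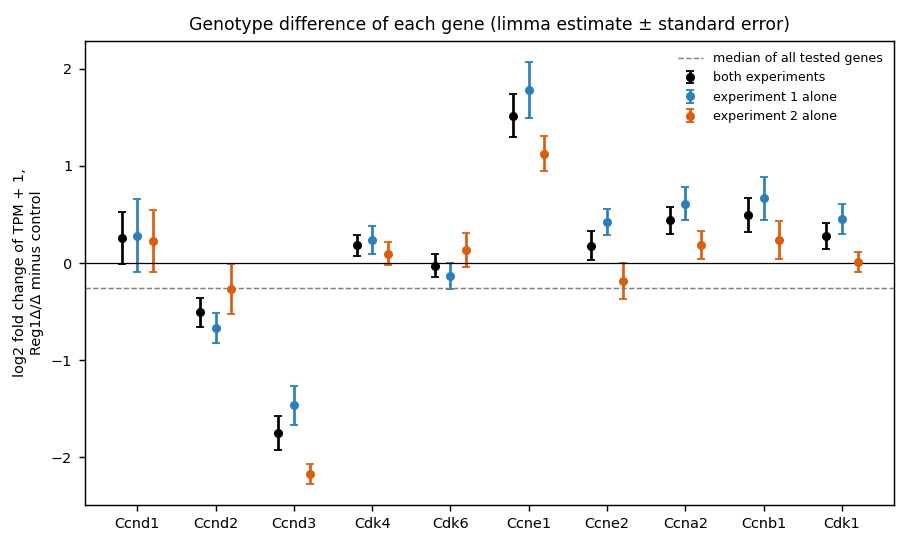
Log2 fold change of TPM + 1 (Reg1Δ/Δ-labelled minus control) of each gene over both experiments (black) and in each alone (blue, first; orange, second); points are limma estimates and error bars are standard errors. Ccnd3 (-1.75) and Ccne1 (1.52) stand farthest from 0, and the dashed line marks the median of all tested genes at -0.25.

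Ccna2, cyclin A2, which acts in S phase and G2 (chr3:36564865-36572150, minus strand), was at 72.1, 100 and 97.4 TPM in the first-experiment controls and 127, 131 and 151 TPM in the labelled libraries. The second-experiment values were 126 and 154 TPM against 166 and 151 TPM. The genotypes separated in the first experiment only. Ccna2 rose by 0.44 on the log2 scale over both (SE 0.14, adjusted p = 0.0246), with 0.61 in the first experiment (adjusted p = 0.0243) and 0.19 in the second (adjusted p = 0.456). The call was lost without replicate 2 (adjusted p = 0.0524) or replicate 3 (0.0635) of the first-experiment labelled libraries, after quantile normalization (0.0849) and with coding transcripts only (0.108). A Ccna2 transcript of 1719 bases annotated for nonsense-mediated decay was also called higher (0.62, adjusted p = 0.0348), a call lost without any of 8 libraries, all but control replicate 2 and Reg1Δ/Δ replicate 2 of the second experiment (0.0574 to 0.0892). Exosc9, which overlaps Ccna2 on the opposite strand, was higher too (0.41, adjusted p = 0.0168), but the 1719-base transcript has 0 exon bases inside it.

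Ccnb1, cyclin B1, which activates Cdk1 for mitosis (chr13:100778650-100786570, minus strand), was at 97.7, 154 and 152 TPM in the first-experiment controls and 202, 187 and 246 TPM in the labelled libraries. It was at 88.5 and 120.2 TPM against 127 and 117 TPM in the second experiment. As for Ccna2, the genotypes separated in the first experiment and overlapped in the second. Ccnb1 rose by 0.49 over both (SE 0.17, adjusted p = 0.0357), with 0.67 and 0.24 within the experiments (adjusted p = 0.042 and 0.478). This call rested on most libraries, being kept in 3 of 10 fits that left out a library. It was lost without replicates 1 (adjusted p = 0.0695), 2 (0.0555) or 3 (0.0881) of the first-experiment labelled libraries, replicate 1 of the second-experiment ones (0.0551), control replicates 1 (0.0591) or 3 (0.0501) of the first experiment, and control replicate 1 of the second (0.0666), and also with no filter (0.0794), after quantile normalization (0.0869) and with coding transcripts only (0.0514).

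Cdk1, the kinase of the A- and B-type cyclins (chr10:69335146-69352938, minus strand), was at 233, 294 and 311 TPM in the first-experiment controls and 380.5, 353 and 411 TPM in the labelled libraries. It was at 352 and 322 against 357 and 320.1 TPM in the second experiment. It separated in the first experiment (0.46, adjusted p = 0.0479) and overlapped in the second (0.01, adjusted p = 1). Over both it was not called (log2 fold change 0.28, SE 0.13, adjusted p = 0.102), and under median-of-ratios scaling it was (0.69). Most of its TPM in the first-experiment controls, 84.4%, was assigned to retained-intron transcripts.

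Ccna2, Ccnb1 and Cdk1 varied together over the libraries. After the mean of each experiment was removed, the tested coding gene closest to Ccna2 over the 10 libraries was Ccnb1 (Pearson r = 0.98), followed by Gen1, a Holliday junction resolvase (0.98). Cdk1 lay closest to Rrm2, a subunit of ribonucleotide reductase (0.98), and Trip13, a mitotic checkpoint ATPase (0.97). Ccnd3 was closest to Uaca and the B cell gene Fcrla (both r = 0.997), Ccne1 to Nup85 (0.996) and Nudt9 (0.995) and Ccnd2 to Zfp738 (0.98) and Hk2 (0.97). For genes that differ by genotype, much of such a likeness is the shared genotype difference. The remaining closest genes were Thoc5 (0.96) and Vars2 (0.91) for Ccnd1, Cox11 (0.94) and Spata5 (0.92) for Ccne2, Wbscr22 and Drg2 (both 0.97) for Cdk4, and Eif4ebp2 (0.90) and Ngrn (0.89) for Cdk6.

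RefSeq promoters of 250 bases before to 50 bases after a start site were at hand for 6 of the 10 genes, all but Ccnd1, Ccnd2, Ccne2 and Ccna2. They were searched on both strands for the cell cycle elements CHR (TTTGAA, bound by the MuvB complexes), CCAAT and the E2F element (the letters TTTCGCGC, TTTGGCGC, TTTCCCGC or TTTGCCGC). Over 32851 mouse promoters, 2.26% held the E2F element, 17.9% the CHR and 37.4% a CCAAT box. Of the members, the Cdk1 promoter was the only one with the E2F element and with a CHR, and it held 2 CHR and 3 CCAAT matches. A CCAAT match lies 4 bases before the upstream CHR, as the letters ATTGG on the printed strand. The Ccnb1 promoter held 2 CCAAT boxes. The Ccne1, Cdk4, Cdk6 and upstream Ccnd3 promoters held none of these letters. The windows below are shown for the mitotic pair Cdk1 and Ccnb1, on the minus strand of GRCm38.p6 with the motif in capitals, at chr10:69353025-69353054, chr10:69352966-69352995, chr13:100786568-100786597 and chr13:100786536-100786565 in turn.

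Cdk1 E2F element: tttccgctcccTTTCGCGCtctgcgctccc

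Cdk1 upstream CHR: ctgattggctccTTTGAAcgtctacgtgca

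Ccnb1 first CCAAT: gaacccgcggcgCCAATgggaagagagcga

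Ccnb1 second CCAAT: gccacgaactggCCAATgaggagcgagcgg

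Ranked by mean TPM within a group, Ccnd3 had rank 1 in the first-experiment controls, overlapping Cdk4, and rank 3 in the labelled libraries. In the second experiment it had rank 2 in the controls, below Cdk4, and rank 6 in the labelled libraries, below Ccne1. Ccne1 went from rank 8 to 7 in the first experiment and from 7 to 5 in the second. Cdk4 led the order in the other 3 groups, followed by Cdk1 in both groups labelled Reg1Δ/Δ. The other neighbours in the order that overlapped were Ccnb1 with Ccna2, Ccna2 with Cdk6 and Ccne1 with Ccne2 in the first-experiment controls, Ccnd2 with Ccnb1 and Ccne1 with Cdk6 in the labelled libraries there, and Cdk6 with Ccne1 and Ccne1 with Ccnd2 in the second-experiment controls.

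The genes that surround cyclins and CDKs were described by lists of 105 genes, of which 100 were tested, 21 were higher and 30 lower, with a median of -0.05, beside 15.0% higher, 37.9% lower and a median of -0.25 over all tested genes. The CDK inhibitors had the lowest median, -1.55 over 6 tested genes, of which 4 were lower and none higher. Where at least 1 TPM was required in every library, 4 were tested and 2 were lower. With coding transcripts only, Cdkn3 was called lower too (-0.93, adjusted p = 0.0307). Cdkn1c, which encodes p57 and is known to hold HSCs in quiescence, fell by 3.28 on the log2 scale, from 18.9 ± 2.1 to 0.893 ± 0.22 TPM in the first experiment and from 16.7 ± 7.7 to 1.02 ± 0.78 TPM in the second (adjusted p = 2.02e-06). Cdkn1a, which encodes p21, fell by 2.50 (adjusted p = 3.2e-05), Cdkn2d, an inhibitor of Cdk4 and Cdk6, by 2.12 (adjusted p = 1.54e-05), and Cdkn1b, which encodes p27, by 0.97 (adjusted p = 0.000223). The last was not called under quantile normalization (adjusted p = 0.243). Cdkn3 (-0.55) and Cdkn2c (-0.17) did not pass, and Cdkn2a and Cdkn2b were below the filter.

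Among CDK phosphatases, kinases and Cks subunits, 5 of 10 were higher and 2 lower (median 0.28), and 7 and 1 under median-of-ratios scaling. The second gene lower beside Cdc25b was Wee1 (-0.42), named for completing this count after its value was seen. Its value was -0.02 under median-of-ratios scaling and -0.10 after quantile normalization, and it was called in neither (adjusted p = 0.914 and 0.538). The count of lower genes was 1 without control replicate 1 or 2 or Reg1Δ/Δ replicate 1 or 3 of the first experiment, or replicate 2 of either group of the second. Cks2, a small subunit of CDK complexes, rose by 0.68, Cdc25c, a phosphatase that activates Cdk1, by 0.63 and Ccnh, the cyclin of the CDK-activating kinase, by 0.55, whereas the phosphatase Cdc25b fell by 1.73. Cdk7 (0.28) and Pkmyt1 (-0.10) did not pass; under median-of-ratios scaling both were called higher (0.70 and 0.30). Of 17 proliferation markers, 9 were higher and none lower (median 0.31). The count of higher markers was 4 without replicate 3 of the first-experiment labelled libraries, 0 in the second experiment alone, 4 after quantile normalization and 15 under median-of-ratios scaling. Mki67 (-0.39, adjusted p = 0.101) and Top2a (-0.14, adjusted p = 0.399), widely used markers of dividing cells that are named here after their values were seen, had negative values and did not pass; without each library in turn they ran from -0.50 to -0.26 and from -0.25 to -0.06, and Mki67 was called lower without replicate 2 of the second-experiment labelled libraries (adjusted p = 0.0449). Plk1, a mitotic kinase, rose by 0.75, Rrm2 by 0.62, Tk1 by 0.49 and Aurkb by 0.48, and the replication factors Pcna (0.04) and Mcm2 (0.31) did not pass. The call of Rrm2 was lost without replicate 1 (adjusted p = 0.0571) or replicate 3 (0.0591) of the first-experiment labelled libraries, and after quantile normalization (0.0652).

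Of the other cyclins, 3 of 14 tested were higher and 4 lower (median -0.11), and 5 and 3 under median-of-ratios scaling and 6 and 3 after quantile normalization. Ccng2, a cyclin known from non-dividing cells, fell by 2.88, Ccni by 1.24 and Ccnl1, a cyclin of splicing kinases, by 0.88, while Ccnh rose as given above and Ccnl2 (-0.26) and Ccnf (0.33) did not pass. Ccnl1 was not called with coding transcripts only (log2 fold change -0.06) or under median-of-ratios scaling (-0.47, adjusted p = 0.0558), and Ccnf was called higher under both scalings (0.74 and 0.54). Of 15 other CDKs, 7 were lower and none higher (median -0.28, near that of all genes), while 6 were higher and 4 lower under median-of-ratios scaling and 5 and 6 after quantile normalization. Among those at 5 TPM or more in the higher group were Cdk18 (-2.75), Cdk19 (-1.44), Cdk17 (-0.95) and Cdk13 (-0.45), and Cdk14 (-1.55), at lower levels, also fell, with Cdk7 and Cdk11b (0.04) not called. Cdk13 was not called without any 1 of the 6 first-experiment libraries (adjusted p = 0.0537 to 0.0617), and its value was -0.06 under median-of-ratios scaling, -0.01 after quantile normalization and -0.02 in the second experiment alone. Cdk2, the partner of the E-type cyclins, averaged 54.9 ± 4.1 TPM in the first-experiment controls and 42.6 ± 2.3 TPM in the labelled libraries, and 49.2 ± 5.6 against 35.2 ± 2.1 TPM in the second experiment; it fell by 0.40 (adjusted p = 0.00616), a sign that turned to 0.01 under median-of-ratios scaling, and it is named for its role and not by the rule of size.

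Pocket proteins and E2F factors had 3 of 13 higher and 5 lower (median -0.24), and 5 and 3 under median-of-ratios scaling and 6 and 1 after quantile normalization. Rbl2, the p130 pocket protein of quiescent cells, fell by 1.19, E2f5 by 1.10 and E2f2 by 0.998, and E2f4 rose by 0.87, while Rb1 (-0.56) and E2f6 (0.31) did not pass. The sign of Rb1 turned with coding transcripts only (0.48) and with transcripts of at least 500 bases (0.45), where it was called higher. E2f5 and E2f2 were not called under quantile normalization (adjusted p = 0.314 and 0.364). Of 7 genes of the B-Myb, FoxM1 and MuvB group, 1 was higher and 4 lower (median -0.33), and 2 and 0 under median-of-ratios scaling, 3 and 1 after quantile normalization, and 2 and 4 without control replicate 1 of the first experiment. Mybl2 rose by 0.68, Lin52 fell by 0.64, Foxm1 by 0.54 and Rbbp4 by 0.43, and Lin37 (-0.15) and Lin54 (0.25) did not pass. Lin52, Foxm1 and Rbbp4 were not called under median-of-ratios scaling (adjusted p = 0.178, 0.468 and 0.918), and Foxm1 was not called without replicate 1 of the first-experiment labelled libraries (0.061), control replicate 2 (0.0546) or 3 (0.0511) of that experiment, or control replicate 2 of the second (0.0585). After quantile normalization neither Lin52 (-0.14, adjusted p = 0.42) nor Foxm1 (-0.08, 0.723) was called. The Foxm1 call was also lost with coding transcripts only (0.0606) and with no filter (0.0573).

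Of 20 genes of cyclin turnover, 1 was higher and 4 lower (median -0.05), and 12 and 1 under median-of-ratios scaling and 4 and 3 after quantile normalization. Without replicate 2 of the second-experiment labelled libraries 2 were higher and 2 lower, and 2 were higher without control replicate 2 of the first experiment or control replicate 1 of the second. Btrc, a substrate receptor of the SCF ubiquitin ligase, fell by 0.91, Anapc2 by 0.57 and Skp1a by 0.33, and Cdc20, the mitotic activator of the anaphase-promoting complex, rose by 0.52. Anapc2 was not called under median-of-ratios scaling (-0.16, adjusted p = 0.268). Skp1a turned to 0.08 under median-of-ratios scaling and was not called without replicate 2 of the second-experiment labelled libraries (adjusted p = 0.0557). Anapc5 (-0.01) and Ube2s (0.04) did not pass.

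**Figure D5:**
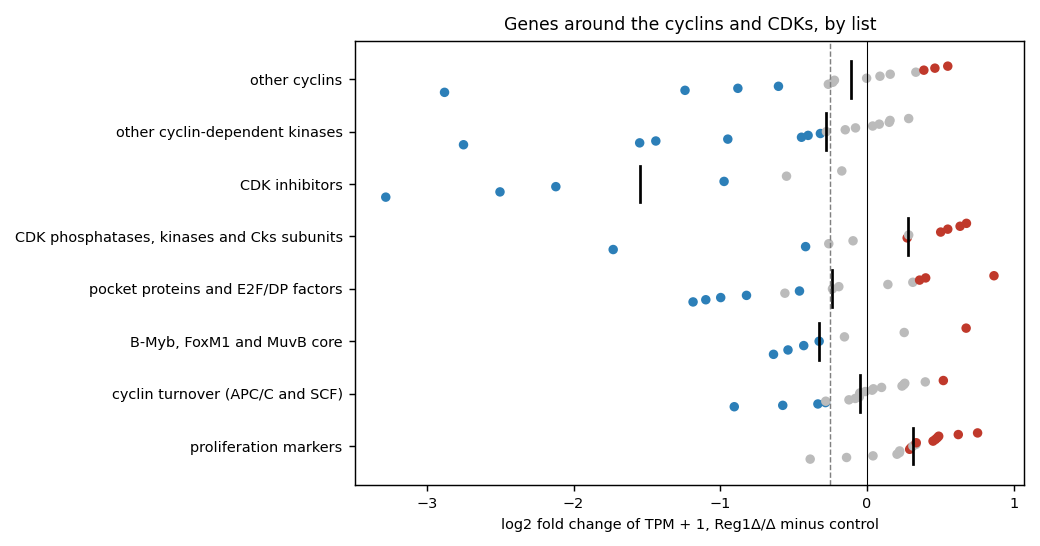
Log2 fold change of TPM + 1 (horizontal axis, Reg1Δ/Δ-labelled minus control) of each tested gene in 8 lists; red points were called higher, blue lower and grey in neither direction, black bars are list medians and the dashed line is the median of all tested genes. CDK inhibitors have the lowest median (-1.55) and proliferation markers the highest (0.31).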

How the data were processed

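The authors reverse transcribed RNA with an unstranded SMART-Seq type kit (the paper and the labels name different versions), sequenced it and deposited 1 file per library with log2 values of TPM + 1 per transcript, estimated with Salmon 0.9.1 on GENCODE mouse transcripts. Sample names come in a pair of styles whose numbers match the group sizes of the study, and libraries named in either style were treated as an experiment; the header of 1 of their files carries its companion's name, and the file was taken as the sample it was deposited for.

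The deposited log2 values were turned back into TPM and summed per gene. Genes at 1 TPM or more in at least 5 libraries were tested on log2(TPM + 1) with limma 3.58.1 in R 4.3.3, with experiment as covariate and Benjamini-Hochberg adjustment over all genes (threshold 0.05); fold changes on this scale understate those of low genes. Transcripts were tested likewise (31937 of them), and the interaction of genotype and experiment in a separate fit. The 10 genes and the lists were chosen with earlier results of these data known. Named from each list were up to 4 called genes with the largest change and a mean of at least 5 TPM in the higher group and up to 2 uncalled genes with the highest mean. Lists were other cyclins, other CDKs, CDK inhibitors, CDK modifiers, pocket proteins and E2F, B-Myb/FoxM1/MuvB, cyclin turnover and proliferation markers; the T lineage marker list had 1 tested gene, which was lower. Coordinates are GENCODE M21 on GRCm38, and promoters are from RefSeq. The limma step was tested on simulated data. Alternatives covered scaling, filter, pseudocount, covariates and leaving out each library.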

Additional observations from a re-analysis of the deposited data

Results flagged for a closer look

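A short non-coding transcript of Ccne2 (ENSMUST00000145430, 418 bases) differed between the experiments in its genotype difference. It was at 1.64, 1.23 and 1.24 TPM in the first-experiment controls and 0.555, 1.36 and 1.51 TPM in the libraries labelled Reg1Δ/Δ. It was listed at 0 in both second-experiment controls and at 3.51 and 2.15 TPM in the labelled libraries there. The log2 fold changes were -0.17 and 1.91, and their difference passed the interaction test (2.09, SE 0.37, adjusted p = 0.0316, limma over all transcripts). The groups overlapped in the first experiment and did not in the second.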

How the results depend on the processing

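Of the 10 genes, 1 was called higher without the experiment covariate, 5 in the first experiment alone, 0 in the second alone, 7 under median-of-ratios scaling, 1 with coding transcripts only and 1 at an adjusted p of 0.01, and 1 to 3 without each library in turn. In the second experiment alone, with 2 libraries a group, 3.51% of all genes were called higher. Called lower were 1 without the covariate, 1 in the second experiment alone, 1 under median-of-ratios scaling and 1 at 0.01, and 2 without any library. Over all genes, 716 were called higher and 3052 lower without the covariate, 452 and 1581 in the second experiment alone, 3861 and 2636 after quantile normalization, 4334 and 3245 under median-of-ratios scaling and 1158 higher at 0.01; quantile normalization moved the median of all genes by 0.40 and median-of-ratios scaling by 0.36. Of the transcripts of the 10 genes, 2 were lower with no filter, 2 with a pseudocount of 0.1, 2 higher and 2 lower without the covariate, 12 lower in the first experiment alone, 0 higher and 1 lower in the second, 12 higher under median-of-ratios scaling, 3 higher with coding transcripts only, 3 higher and 1 lower at 0.01, and 4 to 6 higher and 3 to 8 lower without each library. Of the listed genes, 2 were higher and 15 lower without the covariate, 4 and 9 in the second experiment alone, 32 and 18 after quantile normalization, 50 and 16 under median-of-ratios scaling and 8 higher at 0.01. The sign turned for Ccnd1 with coding transcripts (-0.0932) and with transcripts of at least 500 bases, an alternative chosen after seeing the data (-0.0373), for Ccne2 in the second experiment alone (-0.19), and for Cdk6 there (0.13), after quantile normalization (0.0188), under median-of-ratios scaling (0.39) and without control replicate 1 (0.01) or Reg1Δ/Δ replicate 3 (0.0326) of the first experiment or control replicate 2 of the second (0.00). Without each library in turn, the value of Cdk6 ran from -0.1032 to 0.0326.

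Replicate numbers were not shown to pair the libraries: deviations of same-numbered libraries correlated at 0.03, 0.18 and 0.07 for the 3 pairs of the first experiment and at -0.05 for the others. With the replicate block, 2 of the 10 genes were higher and 2 lower, Ccnb1 losing its call (log2 fold change 0.49, adjusted p = 0.0528) as did Zc3h12a (adjusted p = 0.0505), 1703 of all genes were higher and 4545 lower, 4 transcripts were higher and 2 lower, and 17 listed genes were higher and 27 lower.

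TPM keeps no depth, so low genes such as Ccnd1 carry an unknown counting error. The second experiment holds 2 libraries per genotype, and its share of TPM in short transcripts is lower than in the first; which kit made which libraries is not given in the sources used here.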
